A study of Mus musculus with 12 samples.

Results

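The genes studied here encode the protein subunits of the mitochondrial ribosome and of the machinery that imports proteins into mitochondria. They were chosen by name. Of 54532 genes listed, 103 protein-coding genes have a symbol that begins with Mrpl, Mrps, Tomm or Timm followed by a digit, with 49, 29, 10 and 15 members. The 78 Mrpl and Mrps genes are called ribosome genes below, and the 25 Tomm and Timm genes are called import genes. Kidney RNA was sequenced from 12 C57BL/6 mice in 4 groups of 3, with 1 library per mouse. In the first comparison, β-catenin-/- mice and wild-type mice had unilateral ureteral obstruction (UUO), in which a ureter is tied off. The knockout was made by crossing mice with floxed Ctnnb1, the β-catenin gene, to mice carrying Ksp-Cre, a Cre recombinase expressed in tubules, so that other kidney cells keep the gene. The study reports loss of β-catenin in distal tubules and most proximal tubules, while its discussion calls the deletion in proximal tubules partial. In the second comparison, CD44-/- mice and wild-type mice had unilateral ischemia-reperfusion injury (UIRI), in which the vessels of a kidney are clipped for a time and the other kidney is later removed. The CD44 line is not described in the sources used here. The study's methods describe male C57BL/6 mice bought at some weeks of age, a permanent ligation for UUO, and, for UIRI, sacrifice the day after the other kidney was removed. Whether these ages and sexes hold for the knockout mice, the time after UUO, and the floxed state of the wild-type mice are not given in the sources used here, and all 4 groups carry an injury. The 2 comparisons were normalised separately and have different wild-type libraries, so they were not tested against each other.

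Mitochondria hold a small genome of their own, and the mRNAs copied from it are read by a ribosome whose RNAs come from the same genome but whose proteins are all encoded in the nucleus. Its large subunit forms peptide bonds and its small subunit decodes the mRNA, and what it makes are core subunits of the respiratory chain. Almost every other mitochondrial protein is made in the cytosol and enters through the TOM complex of the outer membrane. From there the TIM23 complex passes proteins with a presequence to the matrix or inner membrane, and the TIM22 complex inserts carrier proteins that small TIM chaperones hand to it. The tubules of the kidney, the proximal tubule above all, are rich in mitochondria.

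Each library held between 15940405 and 20737443 reads assigned to genes. Expression is given as FPKM, the reads of a gene divided by its length and by a term for library depth. Ctnnb1 stood at 84.7, 71.4 and 71.7 FPKM in β-catenin knockout mice and at 91.2, 86.7 and 98.5 FPKM in wild-type mice after UUO, so every knockout mouse was lower, though limma's test did not pass (log2 fold change −0.28, adjusted p = 0.189). Cd44 stood at 19.0, 12.0 and 13.9 FPKM in the mice labelled CD44 knockout and at 19.9, 16.3 and 17.8 FPKM in wild-type mice after UIRI. Replicate 1 of the labelled knockout lies among the wild-type values, so the RNA level of the gene does not bear out its label, and these mice are called "labelled CD44 knockout" throughout. A deleted exon was not measured on its own. The defining markers of the kidney were present, and the makeup of the tissue differed between groups. The summed level of 12 proximal tubule markers was 1605 to 2492 FPKM in β-catenin knockout mice against 675 to 765 FPKM in wild-type mice, and 1005 to 2168 FPKM in labelled CD44 knockout mice against 636 to 713 FPKM. By contrast, 12 macrophage markers summed to 583 to 684 FPKM against 1182 to 1435 FPKM after UUO, and to 830 to 1460 FPKM against 2187 to 2282 FPKM after UIRI. In whole kidney, fewer cells of a type and less RNA per cell cannot be told apart.

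Both ribosome and import genes tended to be more abundant in β-catenin knockout mice than in wild-type mice after UUO. Genes had to reach 0.5 FPKM on average across a comparison, which left 77 ribosome genes and 22 import genes to test. The median log2 fold change on the scale of log2(FPKM + 1), knockout minus wild type, was 0.31 over ribosome genes and 0.36 over import genes, beside 0.01 over all 16166 genes tested. At an adjusted p under 0.05 (limma, Benjamini-Hochberg over all genes tested), 10 ribosome genes and 3 import genes rose and none fell. This is 13.0% of the ribosome genes and 13.6% of the import genes, beside 6.21% of all genes called higher and 4.36% called lower. A raw p under 0.05 was reached by 37 ribosome genes and 10 import genes, each with a higher level in knockout mice, and by none with a lower level. In 37 ribosome genes and 10 import genes every knockout library lay above every wild-type library, which is 48.1% and 45.5% of those tested beside 19.6% of all genes. No ribosome gene and 1 import gene, Tomm34, had every knockout library below every wild-type library, beside 15.9% of all genes. With FPKM rescaled to TPM, which moved the median of all genes to −0.19, 4 ribosome genes and 0 import genes were called, the medians were 0.10 and 0.18, and the calls over all genes turned from 1004 higher and 705 lower to 578 higher and 1178 lower.

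The calls turned on which library was left out, for the members as for all genes. When any library other than β-catenin knockout replicate 3 was left out, limma called 0 ribosome genes and 0 import genes, while 18 to 37 ribosome genes and 6 to 8 import genes still had a raw p under 0.05. Over all genes the number called higher fell from 1004 to between 130 and 520 in the same fits. Without β-catenin knockout replicate 3, 22 ribosome genes and 6 import genes were called, all higher, and the share of all genes called higher was 10.1%. The medians stayed positive, from 0.21 to 0.37 over ribosome genes and from 0.26 to 0.47 over import genes. Replicate 3 had the lowest levels of the 3 knockout mice. Its median over ribosome genes lay 0.14 above the wild-type mean on the log2 scale, compared with 0.31 and 0.45 in replicates 1 and 2, and wild-type replicate 2 reached 0.12. The plot of calls without each library shows the same counts for both comparisons.

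**Figure D1:**
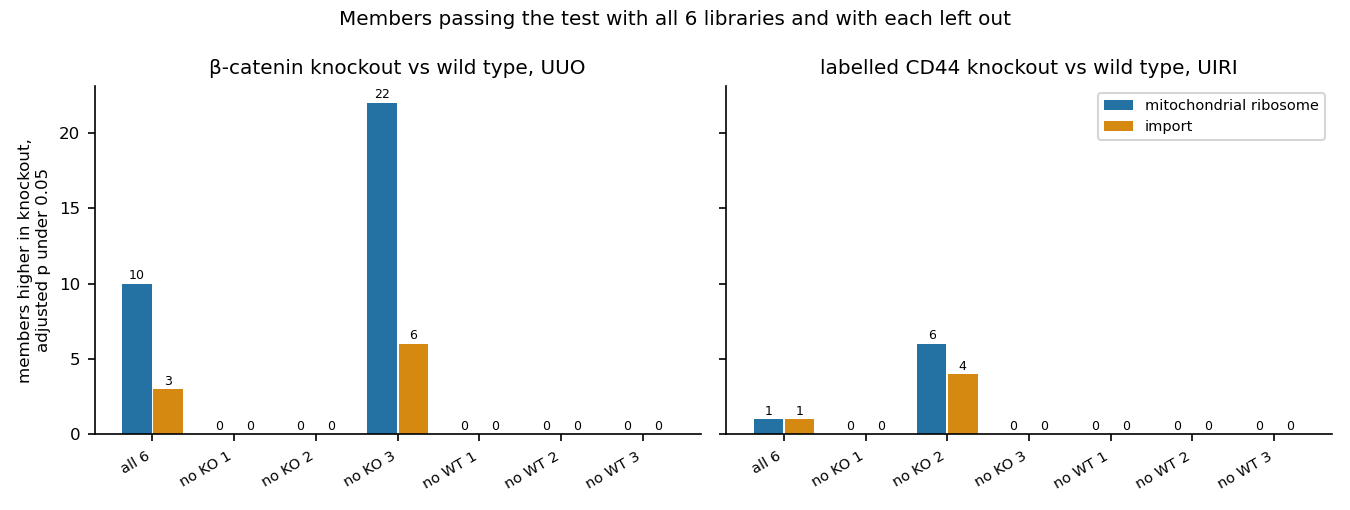
Number of ribosome genes (blue) and import genes (orange) called higher in knockout mice (y axis; limma adjusted p under 0.05), with all 6 libraries of a comparison and with each library left out in turn (x axis). After UUO the 10 and 3 calls go to 0 and 0 without any library but knockout replicate 3, and after UIRI the 1 and 1 calls go to 0 and 0 without any library but knockout replicate 2. Over all genes, 130 to 520 and 0 to 5 were called higher in those fits, and 1631 and 1417 without the 2 libraries named.

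Among the large-subunit genes, 6 of 50 tested passed the test after UUO, all of them higher (12%, beside 6.21% of all genes called higher). Mrpl12, a subunit of the stalk to which translation factors bind, stood at 43.1, 42.8 and 26.1 FPKM in knockout mice and 15.1, 19.6 and 17.1 FPKM in wild-type mice. All knockout values lay above all wild-type values, with replicate 3 the nearest. The log2 fold change was 1.04 (SE 0.21, adjusted p = 0.0266), the largest of all members tested. Mrpl28 stood at 57.3, 53.6 and 39.0 FPKM against 28.7, 29.1 and 24.99 FPKM (log2 fold change 0.82, SE 0.16, adjusted p = 0.0263). Mrpl20, at 30.6, 36.5 and 27.2 FPKM against 20.04, 19.1 and 14.3 FPKM, differed by 0.79 (adjusted p = 0.03002). Mrpl4, at 36.3, 38.6 and 27.1 FPKM against 22.1, 21.1 and 20.1 FPKM, differed by 0.65 (adjusted p = 0.0377). The groups did not overlap in any of these. Mrpl54 and Mrpl2, chosen after their values were seen, passed with differences of 1.03 and 0.75 (adjusted p = 0.0406 and 0.0431). The most abundant large-subunit genes did not pass: Mrpl34, at 81.5, 94.6 and 64.4 FPKM against 56.5, 56.7 and 53.6 FPKM, had an adjusted p of 0.0815, and Mrpl52 overlapped between groups with a log2 fold change of 0.11. Mrpl58, a peptidyl-tRNA hydrolase built into the large subunit, differed by 0.35 on the log2 scale (adjusted p = 0.132). The lowest fold changes of the family, −0.16 for Mrpl33 and −0.15 for Mrpl3, came with adjusted p-values of 0.555 and 0.381.

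Of the small-subunit genes, 4 of 26 rose and none fell after UUO (15.4% higher, beside 6.21% of all genes). Mrps34 stood at 17.7, 16.1 and 10.9 FPKM in knockout mice and 8.04, 7.58 and 7.61 FPKM in wild-type mice, which differ by 0.84 on the log2 scale (SE 0.17, adjusted p = 0.0285). Its span overlaps other genes, as described below. Mrps21, the most abundant small-subunit gene, stood at 93.8, 105.6 and 65.7 FPKM against 50.6, 51.5 and 42.5 FPKM (0.84, SE 0.19, adjusted p = 0.0373). Mrps26 stood at 11.7, 12.6 and 7.01 FPKM against 5.63, 5.15 and 4.78 FPKM (0.85, SE 0.20, adjusted p = 0.0421). Mrps12, the subunit at the decoding centre that is conserved from bacteria, stood at 28.3, 31.9 and 26.2 FPKM against 20.1, 19.4 and 16.0 FPKM (0.61, SE 0.13, adjusted p = 0.03002). In each of the 4, every knockout value was above every wild-type value, and in each knockout replicate 3 was the lowest of its group. The 3 Mrps18 genes, which are homologous to each other but sit at different places in the ribosome, had unlike values. Mrps18a, a large-subunit protein despite its symbol, differed by 0.45 (adjusted p = 0.0890), beside 0.01 for Mrps18b and 0.24 for Mrps18c (adjusted p = 0.960 and 0.503). The differences among the 3 were not tested. Mrps36 carries a ribosomal symbol but is now assigned to the oxoglutarate dehydrogenase complex of the citric acid cycle. It stood at 19.7, 26.8 and 18.5 FPKM against 13.8, 18.3 and 12.7 FPKM (0.51, adjusted p = 0.121).

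Import genes of the outer membrane gave 1 call after UUO, out of 8 Tomm genes tested (12.5%, beside 6.21% of all genes called higher). Tomm20, the receptor that binds presequences, stood at 28.6, 31.8 and 29.6 FPKM in knockout mice and 20.6, 20.99 and 20.5 FPKM in wild-type mice. The spread within each group was small beside the gap between them (30.01 ± 1.62 against 20.7 ± 0.27 FPKM, SD, n = 3), and unlike the ribosome genes above replicate 3 was not the lowest knockout library. The log2 fold change was 0.51 (SE 0.10, adjusted p = 0.0235), and the call was lost with FPKM rescaled to TPM (adjusted p = 0.115). Tomm22, the receptor at the centre of the complex, was more abundant but did not pass, at 40.4, 43.6 and 38.6 FPKM against 38.9, 43.7 and 38.0 FPKM (0.02, SE 0.11, adjusted p = 0.906). Tomm70a, the receptor for carrier proteins, stood at 12.4, 13.0 and 12.5 FPKM against 10.6, 11.2 and 11.4 FPKM (0.18, adjusted p = 0.250), without overlap. The channel gene Tomm40 differed by 0.33 (adjusted p = 0.201) and its paralog Tomm40l, at 1.87 FPKM on average, by 0.28 (adjusted p = 0.319). Of the small TOM subunits, Tomm7 stood at 14.3, 32.3 and 14.6 FPKM against 11.5, 9.21 and 8.21 FPKM (0.92, SE 0.31, adjusted p = 0.0963), with knockout replicate 2 far above the others. Tomm5 differed by 0.39 (adjusted p = 0.188). Tomm34, a cytosolic co-chaperone that is no part of the TOM complex, went the other way at 12.8, 15.4 and 17.3 FPKM against 17.4, 19.0 and 18.4 FPKM (−0.26, SE 0.13, adjusted p = 0.220).

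For the inner membrane and the space between the membranes, 2 of 14 Timm genes tested rose after UUO and none fell. This is 14.3%, beside 6.21% of all genes called higher. Timm17a, a core subunit of the TIM23 complex, stood at 10.4, 10.3 and 7.48 FPKM in knockout mice and 5.95, 6.14 and 5.52 FPKM in wild-type mice (0.59, SE 0.14, adjusted p = 0.0426). Its paralog Timm17b, which takes the same place in the complex, had overlapping values and differed by 0.28 (adjusted p = 0.201). The difference between the paralogs was not tested. Timm23 stood at 23.0, 32.8 and 20.5 FPKM against 18.7, 17.9 and 16.7 FPKM (0.47, adjusted p = 0.129). Timm44, which ties the import motor to the channel, and Timm50, the presequence receptor of the complex, had log2 fold changes of 0.39 and 0.40 (adjusted p = 0.0653 and 0.149). Timm22, the channel for carrier proteins, had one of 0.29 (adjusted p = 0.197). The small TIM chaperones tested all had positive fold changes, with Timm10b counted in the TIM22 complex instead. Timm13 stood at 63.6, 62.95 and 33.4 FPKM against 24.8, 27.3 and 24.5 FPKM (0.98, SE 0.25, adjusted p = 0.0482), the 1 chaperone to pass. Its partner Timm8a1 and the related Timm8b differed by 0.39 and 0.45 (adjusted p = 0.1702 and 0.0691), and Timm9 and Timm10, which form a complex, by 0.26 and 0.58 (adjusted p = 0.158 and 0.0548).

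**Figure D2:**
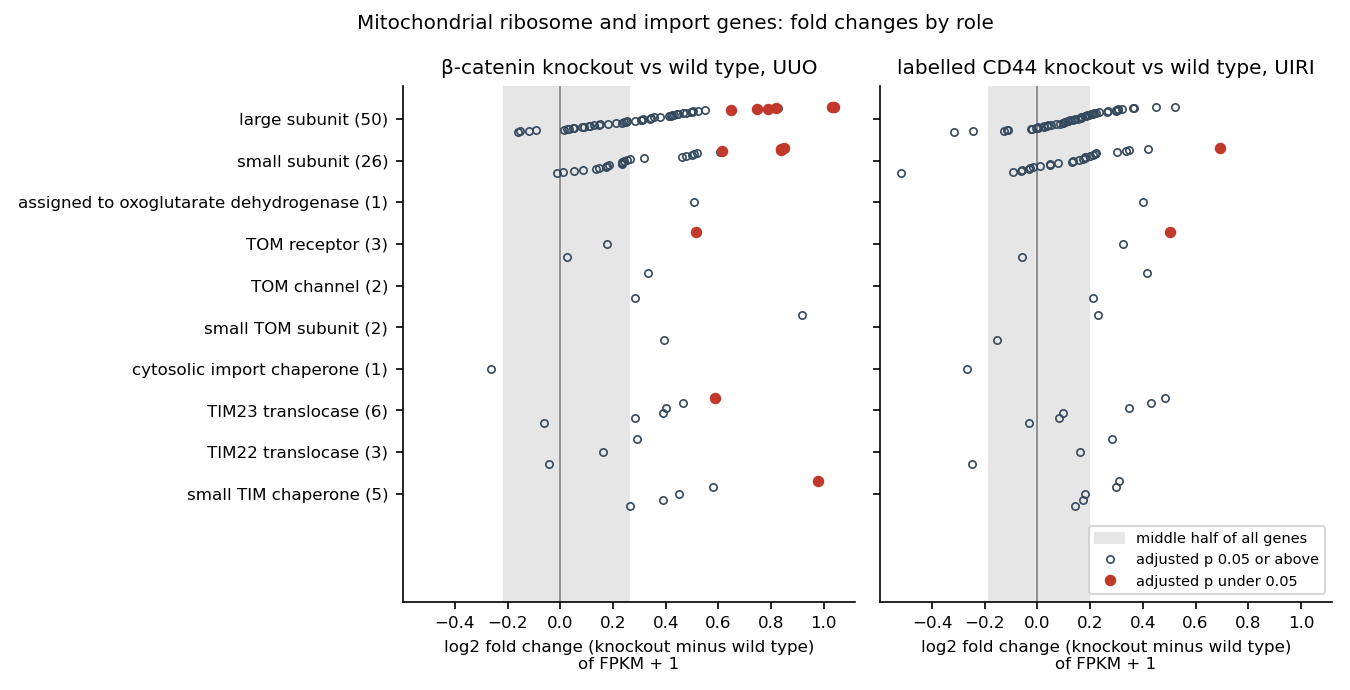
Log2 fold change (x axis; knockout minus wild type, on log2(FPKM + 1)) of each of the 99 members tested, grouped by the role of the protein (y axis, number tested in parentheses), after UUO (left) and UIRI (right). Filled red points have a limma adjusted p under 0.05, open points do not, and the grey band runs from the lower to the upper quartile of all genes tested. After UUO 91 of 99 members lie above 0, beside 8258 of all 16166 genes tested. After UIRI 79 of 99 do, beside 8086 of 16113. The members share libraries, so these counts are not independent.

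The bases in front of 5 of these genes are shown to let a reader see letters to which known regulators of mitochondrial genes can bind. All 5 hold such letters, so they do not stand for the called genes as a whole, and Timm23 was not called in either comparison. They come from RefSeq on GRCm38.p6 and run 5′ to 3′ on the strand of the gene, ending at the base before its RefSeq start. Each gives 100 bases. Capitals mark GCGCANGCG, the letters bound by NRF1, or CCGGAAG, the core bound by ETS factors such as GABPA, on either strand. The RefSeq start of Tomm20 lies 77 bases upstream of the gene's start in the deposited table, and the other 4 lie 5 to 24 bases downstream of theirs. The positions are chr8:126945922-126946021 (minus strand) for Tomm20, chr11:120484537-120484636 (plus strand) for Mrpl12, chr3:95871515-95871614 (minus strand) for Mrps21, chr2:130563657-130563756 (plus strand) for Mrps26 and chr14:32201892-32201991 (minus strand) for Timm23.
Tomm20: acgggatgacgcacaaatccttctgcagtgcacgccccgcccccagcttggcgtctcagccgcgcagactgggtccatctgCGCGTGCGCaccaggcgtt
Mrpl12: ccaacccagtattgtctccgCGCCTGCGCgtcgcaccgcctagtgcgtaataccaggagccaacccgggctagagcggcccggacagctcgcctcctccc
Mrps21: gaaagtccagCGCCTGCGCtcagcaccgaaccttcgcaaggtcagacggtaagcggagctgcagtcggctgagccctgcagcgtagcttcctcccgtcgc
Mrps26: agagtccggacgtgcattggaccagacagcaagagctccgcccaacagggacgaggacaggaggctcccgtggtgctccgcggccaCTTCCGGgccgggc
Timm23: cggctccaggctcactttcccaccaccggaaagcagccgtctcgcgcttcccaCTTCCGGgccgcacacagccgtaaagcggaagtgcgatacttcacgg

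In the 250 bases before the start, the NRF1 letters occurred in 15 of 91 members with a promoter in the RefSeq table (16.5%), beside 5.86% of all 27025 genes of that table. The ETS letters occurred in 26 members (28.6%), beside 7.83% of all genes. AAGATGGCG, bound by YY1, occurred in 2 members and 0.71% of all genes, and TCAAGGTCA, bound by estrogen-related receptors and added after the level of Esrra was seen, in 1 member (Timm8b) and 0.422% of all genes. Of the 10 members called after UUO that have a promoter entry, 4 held the NRF1 letters (Tomm20, Mrpl12, Mrps21 and Timm13) and 1 held the ETS letters (Mrps26). The others, Mrpl2, Mrpl20, Mrpl28, Mrps12 and Timm17a, held none of the letters searched. The median log2 fold change after UUO was 0.31 for members with the NRF1 letters and 0.30 for those without, and 0.34 and 0.31 with and without the ETS letters. Both strands were searched, a gene was counted once per motif, and a gene could hold more than 1 motif. A match is a description of the sequence and not a binding site.

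After UIRI, ribosome and import genes were nearer to the wild-type level. The median log2 fold change, labelled CD44 knockout minus wild type, was 0.14 over the 77 ribosome genes and 0.20 over the 22 import genes, beside 0.00 over all 16113 genes tested. One gene of each list rose, Mrps34 and Tomm20, and none fell, by limma's adjusted p. These are 1.30% and 4.55% of the genes tested, beside 4.02% of all genes called higher and 2.19% called lower, so the shares called are near or under the background. A raw p under 0.05 was reached by 15 ribosome genes and 9 import genes with a higher level and by 1 import gene, Tomm34, with a lower level. Every labelled knockout library lay above every wild-type library in 15 ribosome genes (19.5%) and 9 import genes (40.9%), beside 19.1% of all genes. All lay below in 0 ribosome genes and in 2 import genes, Tomm34 and Timm10b, beside 14.5% of all genes. The counts turned on single libraries here too. Leaving out labelled CD44 knockout replicate 2 gave 6 ribosome genes and 4 import genes, and leaving out any of the other 5 libraries gave 0 and 0, with 8 to 22 and 4 to 8 genes at a raw p under 0.05. Without replicate 2, 8.79% of all genes were called higher, and without any of the others 0 to 5 genes were in all, so these counts followed those of all genes. Replicate 2 lay 0.04 below the wild-type mean in its median over ribosome genes, compared with 0.29 and 0.13 above it in replicates 1 and 3, and wild-type replicate 2 lay 0.16 above it. Without it the median rose to 0.22 over ribosome genes and 0.27 over import genes, and without labelled knockout replicate 1 it was 0.06 and 0.08.

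Tomm20 was the member with the smallest adjusted p in both comparisons. After UIRI it stood at 36.1, 32.7 and 34.0 FPKM in labelled CD44 knockout mice and 25.4, 24.7 and 21.7 FPKM in wild-type mice (0.50, SE 0.09, adjusted p = 0.0348), again without overlap and again with no call under TPM (adjusted p = 0.0672). Tomm22 overlapped between groups, at 64.5, 47.4 and 59.9 FPKM against 56.2, 63.6 and 58.2 FPKM (−0.06, adjusted p = 0.808). Tomm70a had values of 12.8, 10.4 and 11.3 FPKM against 9.37, 8.17 and 9.33 FPKM (0.33, SE 0.10, adjusted p = 0.0983). Tomm40 differed by 0.42 and Tomm40l by 0.21 (adjusted p = 0.113 and 0.173), each without overlap. Tomm5, the most abundant outer membrane member, had overlapping values (0.23, adjusted p = 0.451). Tomm7, which had the largest fold change of the Tomm genes after UUO, also overlapped here and had a log2 fold change of −0.15. Tomm34 stood at 14.4, 14.4 and 15.5 FPKM against 17.1, 19.4 and 17.5 FPKM (−0.27, SE 0.08, adjusted p = 0.0970). Its fold change had nearly the same value as after UUO and did not pass the test in either comparison.

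Mrps34 stood at 24.5, 18.2 and 22.1 FPKM in labelled CD44 knockout mice and 12.3, 15.4 and 11.3 FPKM in wild-type mice after UIRI (0.69, SE 0.15, adjusted p = 0.0475). Its whole span, chromosome 17 from 24895116 to 24897502 on GRCm38, lies inside Mapk8ip3 on the opposite strand. It also shares 1003 of its 2387 bases with Nme3 on the same strand, which had a mean of 0 FPKM in both comparisons. The library kit did not mark strand, so reads from these genes cannot be told apart where their exons overlap. The authors' counter leaves such reads out unless set otherwise. The other ribosome genes with the smallest p did not pass. Mrpl2 stood at 67.9, 67.7 and 67.8 FPKM against 47.6, 58.0 and 43.7 FPKM (0.45, adjusted p = 0.0680). Mrpl10, Mrpl57 and Mrpl18 differed by 0.27, 0.30 and 0.37 (adjusted p = 0.0788, 0.0852 and 0.0919), and Mrps18b, Mrps36 and Mrps2 by 0.42, 0.40 and 0.34 (adjusted p = 0.0791, 0.0823 and 0.0874), all without overlap. Mrpl12, the member with the largest fold change after UUO, stood at 107.9, 65.3 and 93.8 FPKM against 59.9, 67.2 and 54.9 FPKM (0.52, SE 0.19, adjusted p = 0.139), where replicate 2 fell among the wild-type values. Mrps21 and Mrps12, both called after UUO, had log2 fold changes of −0.03 and 0.18 here (adjusted p = 0.937 and 0.4196). Mrpl52, at 85.0, 68.4 and 75.3 FPKM against 89.5, 115.3 and 82.8 FPKM, had one of −0.32 (adjusted p = 0.230), while Mrpl34 and Mrpl58 had 0.11 and 0.07. Mrps24, Mrps18a and Mrps18c differed by 0.16, 0.26 and 0.01 (adjusted p = 0.529, 0.212 and 0.973).

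After UIRI 0 of 14 Timm genes passed limma's test, beside 4.02% of all genes called higher, and 5 had a raw p under 0.05. Timm23 stood at 38.1, 30.2 and 47.5 FPKM against 29.1, 27.6 and 27.0 FPKM (0.43, adjusted p = 0.141), and Timm17a at 17.2, 10.7 and 13.6 FPKM against 9.43, 10.4 and 8.53 FPKM (0.49, adjusted p = 0.124). Timm17b again had overlapping values (0.08, adjusted p = 0.643). Timm50 differed by 0.35 and Timm44 by 0.10 (adjusted p = 0.105 and 0.486). In the TIM22 complex, Timm29 stood at 18.8, 17.4 and 18.4 FPKM against 13.9, 14.9 and 15.5 FPKM (0.28, adjusted p = 0.0771), beside 0.16 for Timm22 (adjusted p = 0.431). Timm10b, counted with that complex, went the other way (−0.25), with every labelled CD44 knockout library below every wild-type library. Timm13, called after UUO, overlapped at 128.7, 102.5 and 115.9 FPKM against 99.6, 132.1 and 86.1 FPKM (0.14, adjusted p = 0.638). The other small TIM chaperones, Timm8a1, Timm8b, Timm9 and Timm10, had log2 fold changes of 0.30, 0.17, 0.31 and 0.18, with adjusted p from 0.159 to 0.462.

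**Figure D3:**
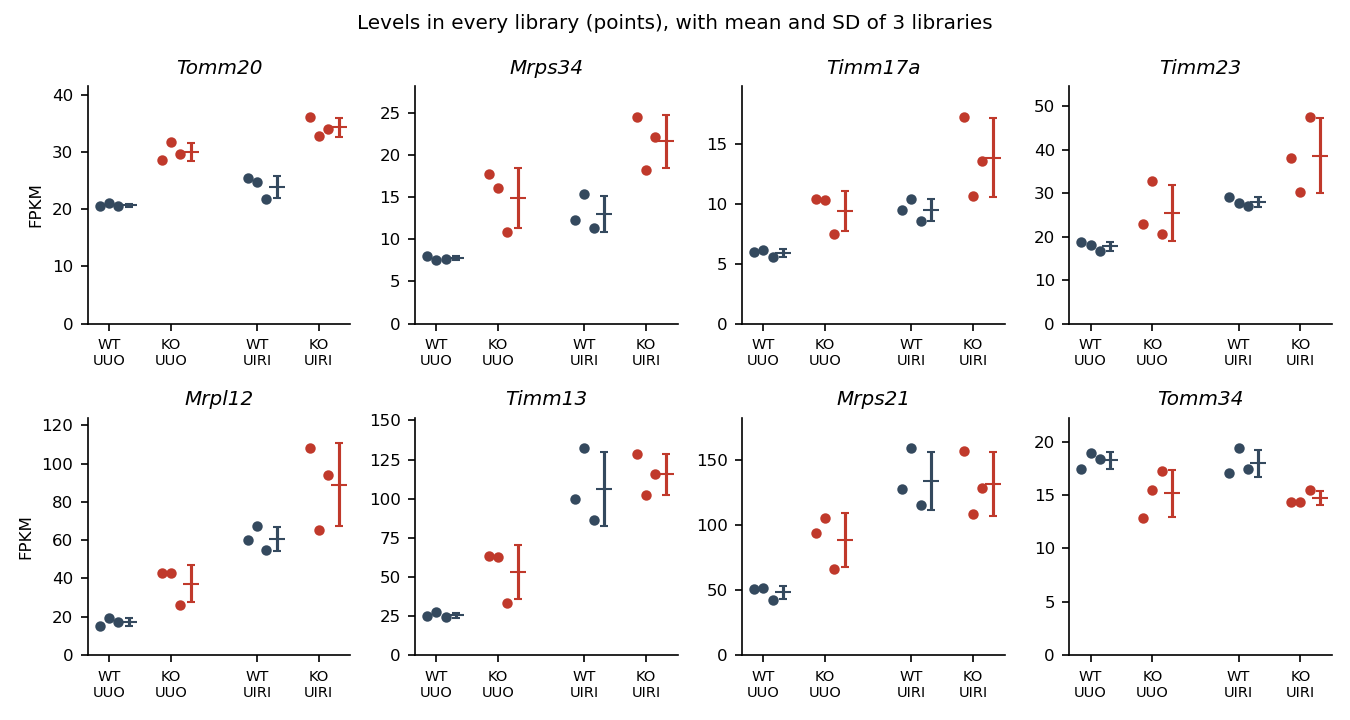
FPKM (y axis, from 0) of 8 members in each library (points), with the mean and SD of 3 libraries beside them, for wild-type (dark) and knockout mice (red; labelled CD44 knockout after UIRI). Tomm20 and Mrps34 separate the groups in both comparisons, Mrpl12, Timm13 and Mrps21 separate them only after UUO, and Tomm34 lies lower in every knockout library. Levels of the 2 comparisons were normalised separately.

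Side by side, 47 members had every knockout library above every wild-type library after UUO and 24 did after UIRI, and 12 did in both (25.5% of the 47 and 12 of the 24). Of all genes that separated this way after UUO, 46.6% also did after UIRI, and of those after UIRI, 47.3% did after UUO. Those in both were 12 of 99 members beside 9.3% of all 15489 genes tested in both comparisons. These were Mrpl2, Mrpl4, Mrpl10, Mrpl57, Mrps5, Mrps26, Mrps34, Mrps36, Tomm20, Tomm70a, Timm17a and Timm23. Tomm34 was the 1 member that lay below in both. Ribosome and import genes moved alike within a library. After UUO the medians over ribosome genes lay 0.31, 0.45 and 0.14 above the wild-type mean in the 3 knockout mice, and those over import genes 0.41, 0.46 and 0.12. After UIRI they were 0.29, −0.04 and 0.13 over ribosome genes and 0.35, 0.03 and 0.18 over import genes. In the wild-type mice, replicate 2 was the highest of its 3 for both lists in each comparison. The order of the libraries was thus nearly shared by both lists, and the median of the import genes exceeded that of the ribosome genes in 5 of 6 knockout libraries. That difference was not tested.

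2 gene families that resemble the members were set beside them, chosen after the data were seen. Complex I subunits, the largest respiratory complex, had a higher median than the members after UUO (0.64). Of these 37 genes 8 were called higher (21.6%, beside 6.21% of all genes) and none lower. After UIRI their median was lower than that of the members (0.09, 0 called by limma, 2 with a raw p under 0.05). Genes for proteins of the cytosolic ribosome had a median of 0.18 after UUO, with 0 of 77 called by limma and 10 at a raw p under 0.05, all higher. After UIRI their median was −0.30, with 0 of 77 called and 22 at a raw p under 0.05, all lower. In 48 of these 77 every labelled CD44 knockout library lay below every wild-type library (62.3%, beside 14.5% of all genes). The median fold changes of the genes for the cytosolic and for the mitochondrial ribosome thus lay on opposite sides of 0 after UIRI (−0.30 and 0.14). Under TPM the median of the mitochondrial ribosome genes was 0.02, and labelled CD44 knockout replicate 2 lay at −0.04 in the plot of list medians. The mRNAs copied from the mitochondrial genome, the templates of the mitochondrial ribosome, had medians of 0.44 after UUO and 0.46 after UIRI over 13 genes, with 1 called higher and 1 lower in each. They took 3.97% to 4.34% of the reads in β-catenin knockout mice against 3.17% to 3.36% in wild-type mice, and 2.55% to 3.11% in labelled CD44 knockout mice against 2.05% to 2.48%, with all genes of that genome counted.

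**Figure D4:**
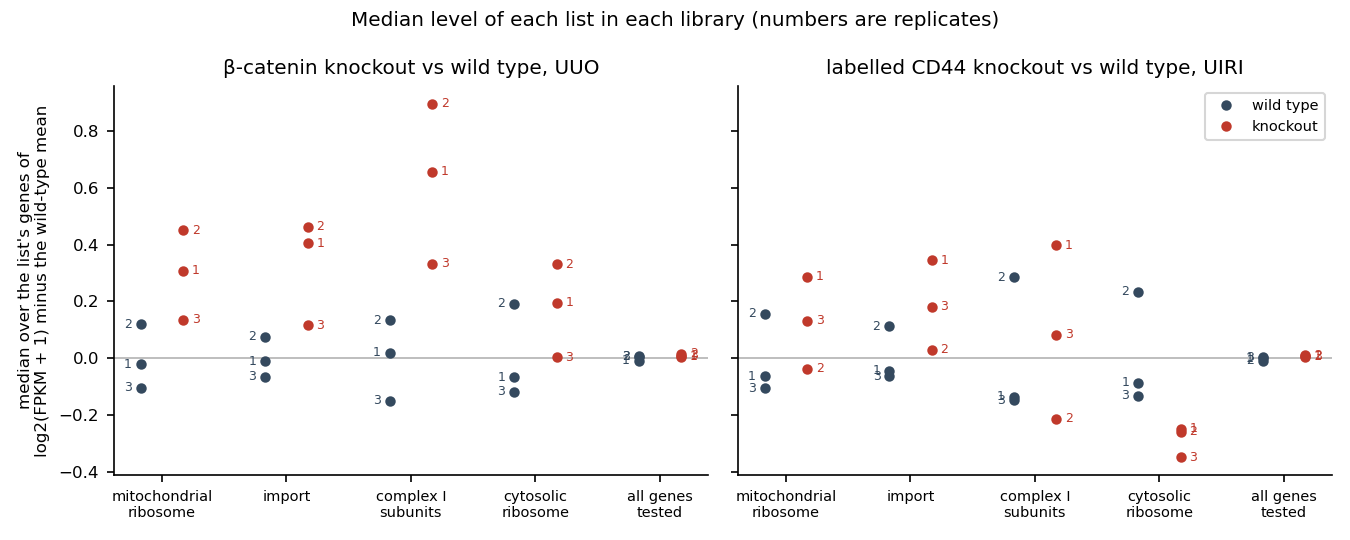
Median over each list's tested genes of log2(FPKM + 1) minus the gene's wild-type mean (y axis) in every library, for the ribosome genes, import genes and 3 other sets (x axis). Points are libraries with their replicate number, dark for wild type and red for knockout. After UUO all knockout points of ribosome and import genes lie above the wild-type points, after UIRI they overlap, and the cytosolic ribosome lies below 0 in the labelled CD44 knockout mice.

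Other genes of mitochondrial translation and import were taken from lists written from textbook knowledge. The 5 ribosomal proteins whose symbols the rule does not match had a median of 0.37 after UUO and 0.09 after UIRI, with none called. Their smallest p belonged to Gadd45gip1 in each comparison, at 11.7, 11.9 and 6.14 FPKM against 5.56, 5.48 and 5.69 FPKM after UUO (0.68, adjusted p = 0.0972) and 0.42 after UIRI (adjusted p = 0.107). Of 11 translation factors and helpers none was called in either comparison, with medians of 0.19 and 0.10. Tsfm, which recharges the elongation factor, had the smallest p after UUO (0.47, adjusted p = 0.0585), and Gfm1, which moves the ribosome along, after UIRI (0.58, adjusted p = 0.0634). Of 17 assembly factors none was called either, with medians of 0.11 and 0.12. Malsu1 (0.47, adjusted p = 0.0615) and Noa1 (0.32, adjusted p = 0.0652) came nearest after UUO and UIRI. Of 17 mitochondrial tRNA synthetases none was called after UUO, and Iars2, which charges the tRNA for isoleucine, rose after UIRI (0.44, adjusted p = 0.0377). Their medians were 0.07 and 0.19. At a raw p under 0.05 after UUO these 4 lists gave 3, 4, 5 and 4 genes, all higher, and after UIRI 1, 1, 2 and 6, all higher.

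Of the 22 import genes outside the naming rule, 4 were called higher and none lower after UUO, with a median of 0.34. After UIRI 1 was called higher and none lower, with a median of 0.24. These are 18.2% and 4.55%, beside 6.21% and 4.02% of all genes called higher. Samm50, which inserts barrel proteins into the outer membrane, was called in both, at 24.0, 25.1 and 17.4 FPKM against 13.2, 14.6 and 13.7 FPKM after UUO (0.63, adjusted p = 0.0443) and 32.7, 29.1 and 33.7 FPKM against 23.8, 24.7 and 21.7 FPKM after UIRI (0.43, adjusted p = 0.0490). Grpel2 and Dnajc19, helpers of the matrix import motor, differed by 0.46 and 0.62 after UUO (adjusted p = 0.0348 and 0.0429). Hspa9, the motor itself, stood at 180.7, 119.0 and 162.1 FPKM against 104.9, 109.1 and 100.7 FPKM after UIRI (0.53, adjusted p = 0.0951). Among 11 regulators of mitochondrial genes, 2 were called higher and none lower after UUO, and 3 higher and none lower after UIRI. These are 18.2% and 27.3% of the list, beside 6.21% and 4.02% of all genes called higher, and its medians were 0.08 and 0.18. Esrra, the nuclear receptor ERRα, stood at 36.5, 35.0 and 24.6 FPKM against 18.9, 14.1 and 16.3 FPKM after UUO (0.91, adjusted p = 0.0255) and at 68.2, 57.0 and 66.0 FPKM against 41.1, 46.0 and 38.3 FPKM after UIRI (0.60, adjusted p = 0.0354). Polrmt, the RNA polymerase of mitochondria, rose in both by 0.41 and 0.42 (adjusted p = 0.0445 and 0.0490). Ppargc1b, a coactivator, rose after UIRI (0.65, adjusted p = 0.0427). Ppargc1a, the gene for PGC-1α, did not pass limma's test after UUO (0.22, adjusted p = 0.451). The study reports that PGC-1α protein was restored in these knockout mice. Gabpb1, the partner of the ETS factor GABPA, stood at 2.04, 3.41 and 3.19 FPKM against 3.86, 4.79 and 4.59 FPKM after UUO (−0.49, adjusted p = 0.0997), with every knockout library lower. Gabpa and Nrf1, added after their values were seen because the letters they bind are printed above, differed by −0.17 and 0.00 after UUO (adjusted p = 0.417 and 0.998) and by −0.04 and −0.05 after UIRI (adjusted p = 0.797 and 0.817).

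Marker values are set beside those of the members here. Of all genes tested, 6.21% were called higher and 4.36% lower after UUO, and 4.02% and 2.19% after UIRI. After UUO, 9 of 12 proximal tubule markers were called higher and none lower (median 1.31), 2 of 7 markers of the thick limb and distal tubule were called higher (0.49), 11 of 12 macrophage markers were called lower (−1.08), and 4 of 8 fibroblast markers were called lower (−1.05). No lymphocyte marker was called among 6 (−0.55, 2 at a raw p under 0.05, both lower). After UIRI, 5 of 12 proximal tubule markers were called higher (1.20), 0 of 8 markers of the thick limb and distal tubule were called (−0.05, 1 at a raw p under 0.05), and 8 of 12 macrophage markers, 2 of 8 fibroblast markers and 2 of 6 lymphocyte markers were called lower (−0.84, −0.75 and −0.87). Markers of adrenal, liver and fat were close to absent, with a sum of at most 4.30 FPKM in any library over 7 genes, and none of the 2 and 1 tested was called, though Apoa1 had a raw p under 0.05 after UUO. In labelled CD44 knockout replicate 2, which had the lowest levels of the members, the proximal tubule markers summed to 1005 FPKM, compared with 2168 and 1946 FPKM in replicates 1 and 3, and the macrophage markers to 1460 FPKM, compared with 859 and 830 FPKM. In β-catenin knockout replicate 3, the lowest of its group, the proximal tubule markers summed to 1605 FPKM, compared with 2492 and 1883 FPKM in replicates 1 and 2. Replicate 1 had a higher sum than replicate 2 but a lower median over the members (0.35 against 0.45 above the wild-type mean). The wild-type mice did not follow this order. Replicate 3 after UUO had the highest sum of its group (765 FPKM) and the lowest member median (−0.10). Replicate 2 after UIRI had the lowest sum (636 FPKM) and the highest member median (0.14). The part of tissue makeup in the results for the members was not tested.

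GC content, gene length and expression level moved with the fold changes as well. Across the 99 members tested, which share libraries and were each fitted on their own, Spearman's rank correlation between the log2 fold change and the GC content of a gene's transcripts was 0.45 after UUO, beside 0.29 across all genes, and 0.16 after UIRI, beside 0.08. After UUO it was 0.55 over the 77 ribosome genes and 0.10 over the 22 import genes. Members with at least 55% GC numbered 17 and had a median log2 fold change of 0.62 with 8 called, compared with 0.17 for all genes of that GC content. At under 45% GC, 16 members had a median of 0.22 with 1 called (Timm17a), compared with −0.14 for all such genes. The member medians thus lay above those of all genes in each GC class. The rank correlation with gene length was −0.42 over members and −0.15 over all genes after UUO, and −0.01 and 0.06 after UIRI. That with the mean level was 0.43 and 0.25 after UUO, and 0.09 and 0.27 after UIRI. With each library adjusted for GC content, an alternative chosen after seeing the data, limma called 9 ribosome genes and 2 import genes after UUO, with medians of 0.30 and 0.30. Of all genes 6.06% were called higher in that fit.

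**Figure D5:**
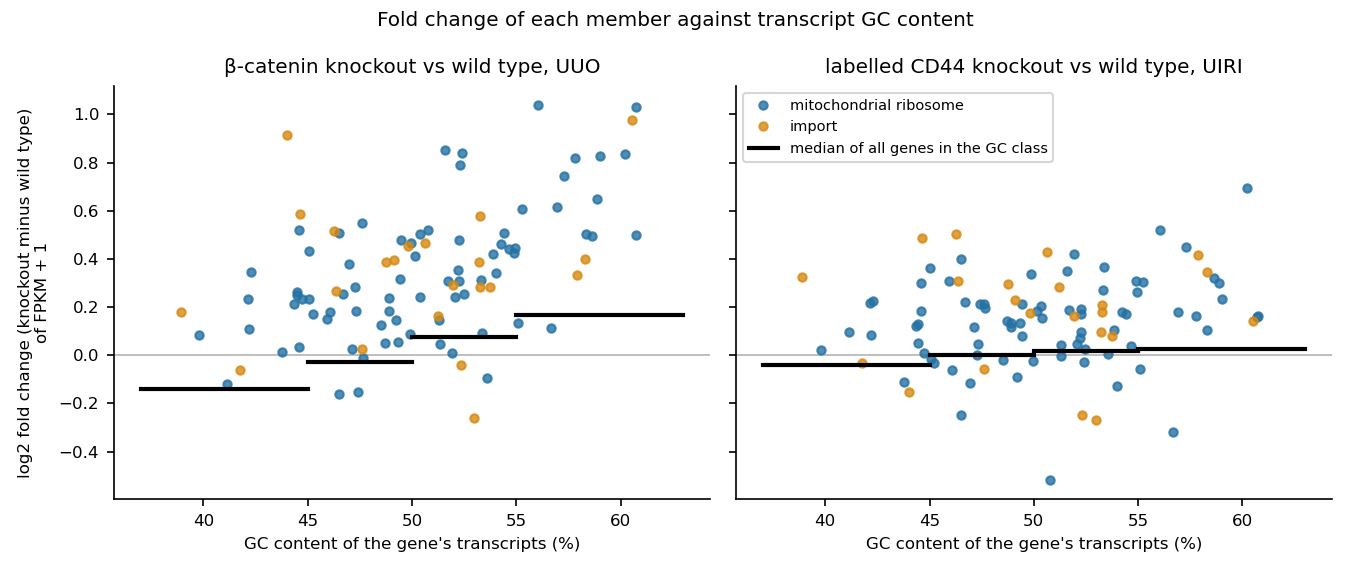
Log2 fold change of each member tested (y axis; knockout minus wild type, on log2(FPKM + 1)) against the GC content of its transcripts in percent (x axis), for ribosome genes (blue) and import genes (orange). Black bars give the median of all genes tested in each of 4 GC classes. After UUO the members' fold changes and the black bars both climb with GC content, with most members above the bars.

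4 members failed the minimum in both comparisons and were not tested. Mrpl53 (chromosome 6, 83109040 to 83109939 on GRCm38) had 0 reads in all 12 libraries. Its 900 bases lie wholly inside the gene model Gm42688 on the same strand, and the authors' counter leaves out reads that fall on 2 genes unless set otherwise, so this 0 is no measure of expression. Tomm6 had 1 to 13 reads per library and shares 1648 of its 1741 bases with Gm21981 in the same way. Timm8a2, a paralog of Timm8a1, had 0 to 4 reads per library, and Tomm20l, a paralog of Tomm20, had 0 to 2. Of all members, 57 overlap another gene somewhere in their span. The 3911 bases of Mrpl2 lie wholly inside the noncoding gene Gm26904 on the same strand. The 37 ribosome genes tested that overlap none had medians of 0.34 and 0.13 after UUO and UIRI, and the 8 import genes had 0.40 and 0.21, close to those of the full lists. Mrps6, singled out after its values were seen, shares 29152 bases with Slc5a3, a carrier of inositol that responds to salt, on the same strand. After UUO it stood at 27.1, 31.4 and 41.9 FPKM against 20.3, 24.5 and 23.3 FPKM, and Slc5a3 at 6.62, 9.16 and 20.2 FPKM against 5.97, 7.16 and 8.87 FPKM. After UIRI Mrps6 stood at 32.4, 36.4 and 34.9 FPKM against 41.7, 84.9 and 35.0 FPKM, and Slc5a3 at 7.22, 6.79 and 10.2 FPKM against 10.6, 21.7 and 12.7 FPKM. The library with the highest Mrps6 of each comparison was also that with the highest Slc5a3.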

How the data were processed

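The authors aligned reads to GRCm38 (mm10) and deposited FPKM per gene. The submitters' processing notes name HISAT2 2.0.5, featureCounts 1.5.0-p3 and DESeq2 1.20.0. A table was deposited per knockout, and its wild-type columns were assigned by the knockout beside them. FPKM times length came in whole reads for 100% of values (within 0.01 read), whose depth term followed median-of-ratios size factors. Knockout and wild-type libraries were compared within each table with limma 3.58.1 in R 4.3.3 (eBayes with a trend) on log2(FPKM + 1), two-sided, for genes that averaged 0.5 FPKM or more. An exact permutation test of 3 against 3 cannot go below p = 0.1. Members and lists were chosen with earlier results of these data known. The genes named are, of each family and comparison, the 4 genes with the smallest p and the 2 most abundant, the main import subunits, paralogs, and genes of each list with the smallest p; a few others, the complex I and cytosolic ribosome sets, the ERR letters and the GC adjustment were chosen after seeing the data. Mrps24 met the family rule after UUO as well, but its values are given only for UIRI. The procedure was tested on simulated data. GC content is of GENCODE M21 transcripts, and promoters are from RefSeq (91 of 103 matched). Python 3.11.15 and Matplotlib 3.10.9 drew the figures. Alternatives were a pseudocount of 0.1, no minimum, a minimum of 1 FPKM, FPKM rescaled to TPM, no trend, voom on recovered reads, a replicate block, GC adjustment and each library left out.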

Additional observations from a re-analysis of the deposited data

How the results depend on the processing

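The direction of the 4 medians held under every alternative run. Between replicates, the SD of a list's library median was 0.14 for both lists after UUO. After UIRI it was 0.15 for ribosome and 0.13 for import genes. The ribosome median after UIRI, 0.14, was thus under its SD, and it was 0.06 without labelled CD44 knockout replicate 1. The other medians were above theirs in the main fit. Rescaling FPKM to TPM, so that all libraries sum alike, lowered the median of all genes to −0.19 after UUO and −0.12 after UIRI. The medians then were 0.10 for ribosome and 0.18 for import genes after UUO, which is 0.29 and 0.37 above that of all genes, and 0.02 and 0.08 after UIRI. Under TPM limma called 4 ribosome and 0 import genes after UUO, with 16 and 6 at a raw p under 0.05. After UIRI it called 0 and 0, with 8 and 5 at a raw p under 0.05. Of all genes, 3.58% and 1.37% were then called higher. Without a minimum level, which adds many genes to the adjustment, the counts were 0 and 1 after UUO and 0 and 0 after UIRI. In those fits 0.946% and 0.146% of all genes were called higher. Without a trend 1 import gene was called after UUO and 0 ribosome genes after UIRI, beside 5.85% and 2.9% of all genes. After UIRI, voom on recovered reads called 2 ribosome genes, beside 5.84% of all genes. The GC adjustment there called 0 ribosome and 2 import genes, beside 3.5%. With each library left out, the counts after UUO ran from 0 to 22 for ribosome and 0 to 6 for import genes. After UIRI they ran from 0 to 6 and 0 to 4. The share of all genes called higher ran from 0.803% to 10.1% and from 0% to 8.79%.

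The labels do not say whether the replicate numbers pair the samples. Same-numbered deviations correlated by 0.08, 0.20 and 0.04 after UUO, and different-numbered ones by −0.16 to 0.08. After UIRI the values were −0.14, −0.03 and −0.03, beside −0.11 to 0.15. A shared effect of the replicate number was not tested. With a replicate block 15 ribosome and 4 import genes were called after UUO, beside 6.14% of all genes called higher. After UIRI 0 and 0 were called, with 8 and 9 at a raw p under 0.05, and the block left 0 genes called in all. Among named genes no called fold change changed sign. Tomm20 lost its call under TPM in both comparisons (adjusted p = 0.115 and 0.0672), and its adjusted p ran from 0.0274 to 0.0797 after UUO and 0.0225 to 0.132 after UIRI with each library left out. Mrps34 kept its call under TPM after UUO (0.0468) and not after UIRI (0.0515). Of the 13 members called after UUO and the 2 after UIRI, 0 stayed called with every library left out in turn.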
